A study of Mus musculus with 10 samples.

Results

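The genes examined were 4 members of the CCN family (Ctgf, Cyr61, Nov and Wisp1) and 6 further genes around the co-activator YAP: its targets Ankrd1 and Edn1, the feedback inhibitors Amotl2 and Lats2, and the co-activator genes Yap1 and Wwtr1 (TAZ). They were found by gene symbol and make up 10 of the 43346 genes in the deposited count table. The 10 genes were chosen by earlier results of these same libraries, in which Edn1 and Ctgf stood among the larger increases of the Kat5 ko clones. Their levels and fold changes are therefore given as a description, without p-values, and how many of them passed a threshold is stated only beside the share of all genes that did.

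RNA was sequenced from mouse O9-1 cells, a line of cranial neural crest cells, in 4 wildtype samples, 3 Kat5 ko clones (Kat5/1 to Kat5/3) and 3 Ep400 ko clones (Ep400/1 to Ep400/3). Kat5 is the histone acetyltransferase and Ep400 the remodeling ATPase of the Tip60/Ep400 complex. All cells were grown on Matrigel-coated dishes in preconditioned medium. The study describes the line as tetraploid, and by its methods each ko clone was expanded from a single sorted cell after CRISPR/Cas9 editing. In the Kat5 clones every allele was edited with predicted frameshifts. For Ep400 this held for clone Ep400/1, whereas Ep400/2 and Ep400/3 each kept at least 1 allele with an in-frame deletion in the ATP binding site. No single-cell expansion is described for the wildtype samples, so that cloning and knockout cannot be told apart.

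Libraries held 30968945 to 48301792 reads on genes. Kat5 transcripts were lower in Kat5 ko clones (log2-fold change −1.40 ± 0.17 SE, adjusted p = 0.0217) and Ep400 transcripts in Ep400 ko clones (−1.44 ± 0.12 SE, adjusted p = 0.00121; edgeR, 3 clones against 4 wildtype samples), with every clone below the wildtype range. Of 18 markers of cranial neural crest and mesenchyme, 12 averaged at least 1 CPM (reads of a gene relative to the library total, scaled by TMM over all libraries) in wildtype cells, while the defining neural crest genes Sox10 and Foxd3 were at 0 reads there. Smooth muscle markers summed to 5.87 to 16.7 CPM in wildtype, 0.461 to 685 CPM in Kat5 ko and 2.34 to 58.8 CPM in Ep400 ko libraries. As RNA came from bulk cultures, fewer cells of a type and less RNA per cell cannot be told apart.

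CCN proteins are secreted matricellular proteins that bind integrins, syndecans and LRP receptors and shape adhesion, migration and matrix production. YAP and TAZ are transcriptional co-activators that have no DNA-binding domain of their own and act mainly through TEAD factors. The Hippo kinases, among them Lats2, phosphorylate YAP and TAZ and keep them in the cytoplasm, and angiomotins such as Amotl2 bind them there. Since Lats2 and Amotl2 are YAP targets themselves, they close a feedback loop. In cranial mesenchyme, endothelin-1 made from Edn1 patterns the lower jaw through its receptor Ednra.

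TEAD factors bind a short motif, GGAATG, which reads CATTCC on the opposite strand. RefSeq promoter windows (GRCm38.p6, 250 bases before to 50 bases after the annotated start) were at hand for 7 of the 10 genes, namely Cyr61, Ankrd1, Edn1, Amotl2, Lats2, Yap1 and Wwtr1, and not for Ctgf, Nov and Wisp1. Each of the 7 had at least 1 window that held the 6 letters, as did 16.6% of 27025 genes (14.7% of 32851 windows). The 250 bases upstream of Cyr61 (chr3:145649986-145650235, minus strand) and Edn1 (chr13:42301226-42301475, plus strand) are shown because, of the genes with a window, these stood apart most clearly in Kat5 ko clones. Shorter stretches of 30 bases around the motif follow for Ankrd1 (chr19:36120037-36120066 and chr19:36119950-36119979, minus strand), Amotl2 (chr9:102717727-102717756, plus strand), Yap1 (chr9:8004720-8004749, minus strand) and Wwtr1 (chr3:57576029-57576058, minus strand). All are written 5′ to 3′ on the strand of the gene, with the motif in capitals.
Cyr61: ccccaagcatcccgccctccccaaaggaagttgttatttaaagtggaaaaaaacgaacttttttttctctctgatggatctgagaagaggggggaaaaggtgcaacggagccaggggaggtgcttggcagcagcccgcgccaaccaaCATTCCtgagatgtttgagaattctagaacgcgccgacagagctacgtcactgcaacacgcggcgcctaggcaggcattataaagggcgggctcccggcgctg
Edn1: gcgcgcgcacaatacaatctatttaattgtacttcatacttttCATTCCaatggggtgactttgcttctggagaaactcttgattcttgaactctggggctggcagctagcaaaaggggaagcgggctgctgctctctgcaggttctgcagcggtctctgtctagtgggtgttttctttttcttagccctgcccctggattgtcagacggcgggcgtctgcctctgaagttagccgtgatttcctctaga
Ankrd1, distal: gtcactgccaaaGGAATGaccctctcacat
Ankrd1, proximal: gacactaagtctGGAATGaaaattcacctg
Amotl2: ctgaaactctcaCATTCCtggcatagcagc
Yap1: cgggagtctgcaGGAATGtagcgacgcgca
Wwtr1: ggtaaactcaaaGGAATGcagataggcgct

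Counted from the start site, the motif began at base −103 in Cyr61, at −207 in Edn1, at −210 and −123 in Ankrd1, at −65 in Amotl2 and at −141 in Yap1. Wwtr1 has 2 annotated starts, from which the same copy lies at −136 and −170. In Lats2 the letters occurred at base 5 downstream of 1 of 2 starts. Neither the AP-1 motif TGANTCA nor a CArG box, the motif of the serum response factor, was found in any of these windows on either strand (7.81% and 1.63% of all windows held them), and the motifs do not overlap each other. A match of letters is no evidence of binding, and a window without one says nothing about the factor.

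**Figure D1:**
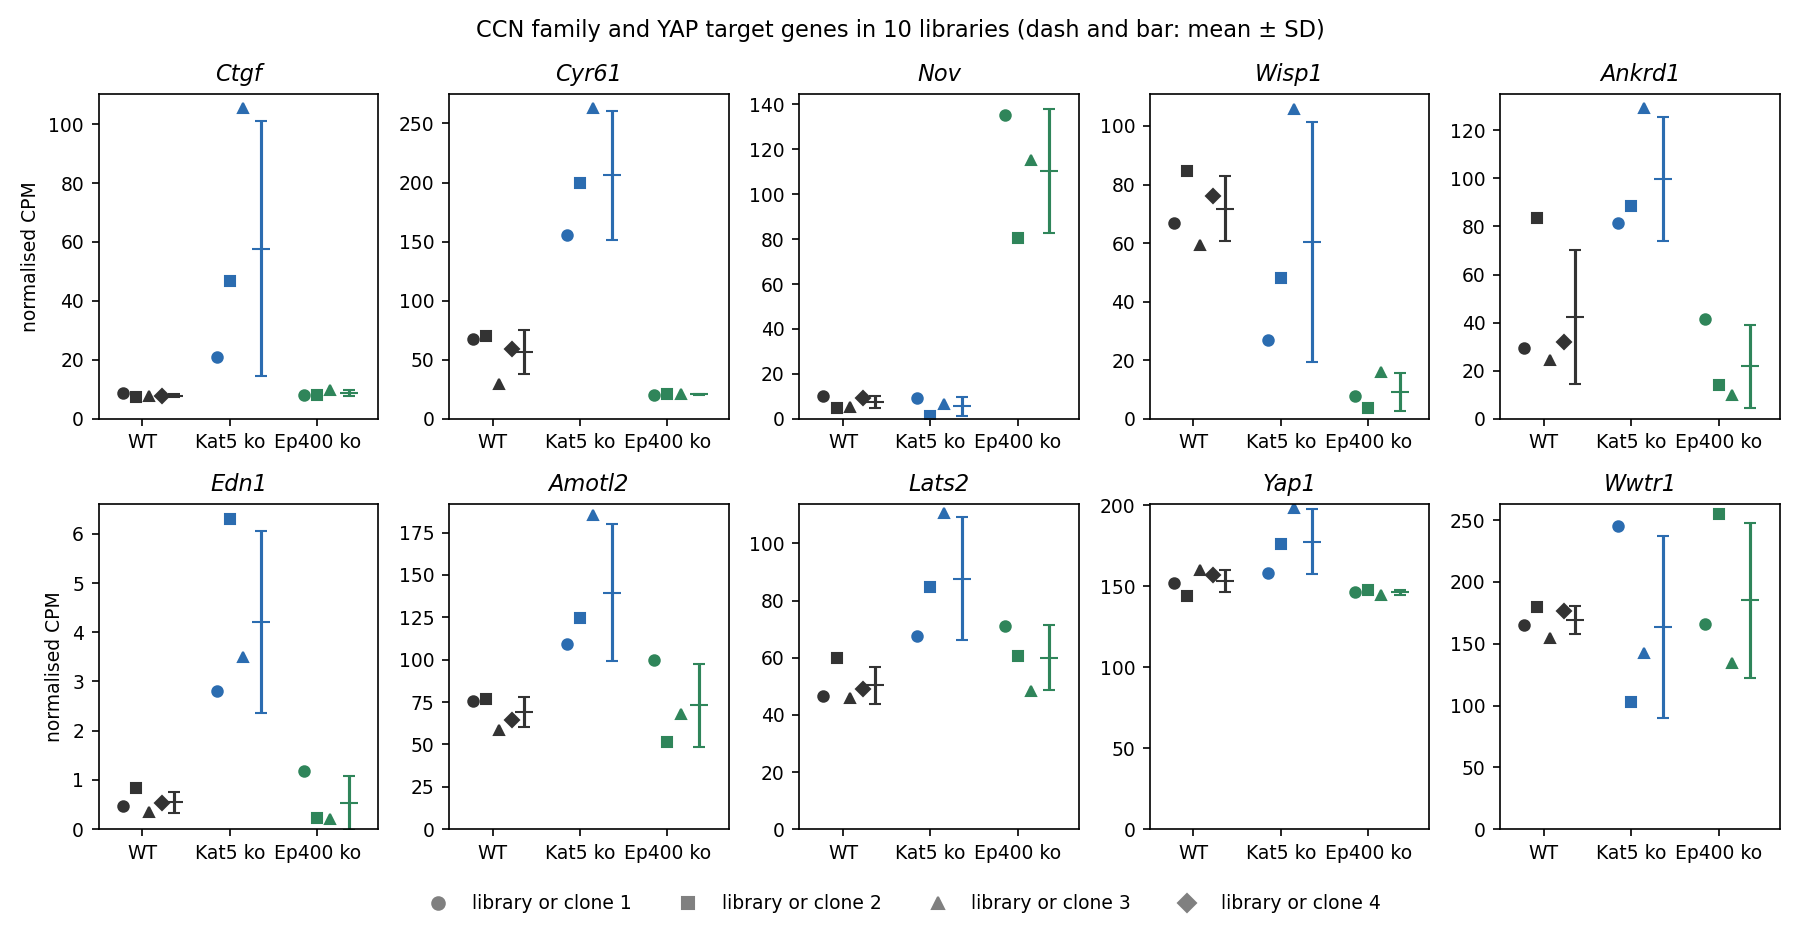
Level of each gene in normalised CPM (vertical axis, from 0) in 4 wildtype (WT), 3 Kat5 ko and 3 Ep400 ko libraries; each symbol is 1 library, and the dash with its bar gives the mean ± SD, cut at 0 for Edn1 in Ep400 ko. Ctgf, Cyr61, Edn1, Amotl2 and Lats2 lay above the wildtype range in all Kat5 ko clones, while Nov lay above and Cyr61 and Wisp1 below it in all Ep400 ko clones.

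Among the CCN genes, Ctgf and Cyr61 were higher in every Kat5 ko clone than in any wildtype sample. Nov was higher in every Ep400 ko clone than in any wildtype sample, and Wisp1 and Cyr61 were lower in every Ep400 ko clone. For Nov and Wisp1 the Kat5 ko clones overlapped with wildtype.

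Ctgf (Ccn2, connective tissue growth factor; chr10:24595442-24598683 in GRCm38) had 8.69, 7.54, 7.85 and 7.64 CPM in wildtype samples 1 to 4. Kat5/1, Kat5/2 and Kat5/3 had 21.1, 46.8 and 105 CPM, and Ep400/1 to Ep400/3 had 8.19, 8.19 and 9.91 CPM. Wildtype samples were thus close to each other (highest over lowest 1.15), whereas the Kat5 ko clones spread 5.01-fold and did not overlap with them. The fitted log2-fold change was 2.83 ± 0.45 SE for Kat5 ko, equal to 7.11-fold, and 4.21-fold without clone Kat5/3. In Ep400 ko clones it was 0.14 ± 0.21, with overlapping groups.

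Cyr61 (Ccn1; chr3:145646976-145649981), an immediate early gene and widely used YAP reporter, was the more abundant of the pair. Wildtype samples had 67.9, 70.5, 29.9 and 59.5 CPM, Kat5 ko clones 155, 199 and 263 CPM, and Ep400 ko clones 20.4, 21.1 and 20.8 CPM. All Kat5 ko clones lay above and all Ep400 ko clones below the wildtype range, the only 1 of the 10 genes with this arrangement. Log2-fold changes were 1.82 ± 0.30 SE and −1.46 ± 0.28 SE. The Ep400 ko clones differed by no more than 1.03-fold among themselves. Wildtype sample 3 was the nearest to them, and without it the Ep400 value was −1.68.

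Nov (Ccn3; chr15:54745702-54754039) reached 135, 80.7 and 115 CPM in Ep400 ko clones, compared with 10.1, 5.06, 5.19 and 9.43 CPM in wildtype samples. Kat5 ko clones had 9.23, 1.09 and 6.46 CPM. The log2-fold change in Ep400 ko was 3.89 ± 0.31 SE, or 14.8-fold. Kat5/1 and Kat5/3 were within the wildtype range and Kat5/2 was below it (−0.44 ± 0.62), and without Kat5/2 the estimate was 0.05.

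Wisp1 (Ccn4; chr15:66891320-66923201), a Wnt-inducible member, was low in the Ep400 ko clones. Levels were 66.8, 84.7, 59.4 and 76.2 CPM in wildtype samples and 7.72, 3.56 and 16.1 CPM in Ep400 ko clones. The log2-fold change was −2.97 ± 0.46 SE, and −3.67 without Ep400/3. Kat5/1 and Kat5/2 had 26.8 and 48.1 CPM and lay below the wildtype range, but Kat5/3 with 106 CPM lay above it (−0.29 ± 0.39). Both Nov and Wisp1 are on chromosome 15, whose 548 genes had a median shift of −0.35 in Kat5/1, 0.22 in Kat5/3 and −0.10 to −0.11 in Ep400 ko clones on the log2 scale, relative to the wildtype mean.

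Of the remaining CCN genes, Wisp3 (Ccn6) had 0 reads in every library, which allows a level of up to 0.0661 to 0.0989 CPM (3 reads, counting error only). Wisp2 (Ccn5), which lacks the C-terminal module of the family, was not among the 10 genes and was tested. It belongs to lists of further genes that were also chosen with earlier results of these data known. It had 87, 10, 124 and 119 reads in wildtype samples, 7, 7 and 1 reads in Kat5 ko clones and 715, 1787 and 2059 reads in Ep400 ko clones. Wisp2 rose in Ep400 ko clones (log2-fold change 4.20 ± 0.70 SE, edgeR adjusted p = 0.00863), passing also with any single library left out. Every Kat5 ko clone was below the wildtype range. The change of −3.96 did not pass in edgeR (edgeR adjusted p = 0.0857) but did in DESeq2 (DESeq2 adjusted p = 0.000147). The difference between the knockouts passed (8.14, edgeR adjusted p = 0.0133).

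Ankrd1 and Edn1 had their highest levels in Kat5 ko clones, but they differed in how well the groups separated. Ankrd1 (chr19:36111961-36120099), which encodes a cardiac ankyrin repeat protein, had 29.6, 83.7, 24.3 and 31.9 CPM in wildtype samples. The Kat5 ko clones had 81.4, 88.4 and 129 CPM. Kat5/1 was below wildtype sample 2, so that the groups overlapped despite a log2-fold change of 1.20 ± 0.42 SE, which was 1.78 without that sample. Ep400 ko clones had 41.7, 14.0 and 9.91 CPM (−0.95 ± 0.58), with −1.83 without Ep400/1 and −0.39 without wildtype sample 2. The median gene of chromosome 19 was shifted by −0.09 to −0.31 in Kat5 ko and by 0.24 to 0.29 in Ep400 ko clones.

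Edn1 (chr13:42301476-42307990) was the least abundant of the 10 genes, with 15, 29, 13 and 24 reads in wildtype samples, which limits its precision. Kat5 ko clones had 102, 191 and 159 reads, and Ep400 ko clones had 50, 7 and 8. These correspond to 0.479, 0.838, 0.339 and 0.530 CPM in wildtype, 2.81, 6.29 and 3.50 CPM in Kat5 ko and 1.17, 0.219 and 0.199 CPM in Ep400 ko libraries. All Kat5 ko clones were above the wildtype range (log2-fold change 2.90 ± 0.44 SE, 7.48-fold). In contrast, Ep400/1 was above and the other Ep400 ko clones were below it (−0.03 ± 0.69), and the value was −1.38 without Ep400/1.

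The feedback inhibitors were moderately higher in Kat5 ko clones, without overlap. Amotl2 (chr9:102716672-102733418) had 75.5, 76.9, 58.5 and 64.7 CPM in wildtype samples against 109, 125 and 185 CPM in Kat5 ko clones (log2-fold change 0.99 ± 0.20 SE). Ep400 ko clones had 99.7, 51.7 and 67.7 CPM, above, below and within the wildtype range (0.08 ± 0.22). Lats2 (chr14:57689662-57758388), the kinase that phosphorylates YAP, had 46.5, 59.8, 45.95 and 48.95 CPM in wildtype samples. It had 67.7, 84.9 and 111 CPM in Kat5 ko clones (0.77 ± 0.19 SE) and 71.0, 60.7 and 48.3 CPM in Ep400 ko clones (0.25 ± 0.17), where Ep400/3 overlapped with wildtype.

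The co-activator genes themselves did not separate any pair of knockout and wildtype groups. Yap1 (chr9:7931999-8004596) had 152, 144, 160.1 and 157 CPM in wildtype, 158, 176 and 198 CPM in Kat5 ko and 147, 148 and 145 CPM in Ep400 ko libraries. In the main fits, its log2-fold changes of 0.18 ± 0.12 SE and −0.07 ± 0.11 SE were the smallest in size of the 10 genes but for those of Wwtr1 in Kat5 ko and Edn1 in Ep400 ko clones, where single clones lay far apart. The median gene of chromosome 9 was shifted by −0.01 to 0.11 in Kat5 ko and by 0.08 to 0.18 in Ep400 ko clones. With the median shifts of the chromosomes taken out, the Ep400 value of Yap1 was −0.22. Wwtr1 (chr3:57455649-57575910) had 165, 179, 154 and 177 CPM in wildtype samples, while the Kat5 ko clones had 245, 103 and 142 CPM and the Ep400 ko clones 166, 255 and 135 CPM. In each knockout, 1 clone was above and at least 1 below the wildtype range. Transcript levels do not report the phosphorylation or location of either protein.

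Several of the 10 genes overlap others in the annotation. Gm15270, on the strand opposite to Ctgf, had 1 to 14 reads per library, Gm20430 opposite to Lats2 1 to 10, Gm26440 opposite to Lats2 0 to 2, Gm20416 opposite to Yap1 0 to 1, and Gm16016 opposite to Wwtr1 0. Edn1 is overlapped by Gm47118 on the opposite strand and Lats2 by Gm49361 on the same strand, which were not analysed here. The library kit keeps strand, but whether counting used it is not given in the sources used here.

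**Figure D2:**
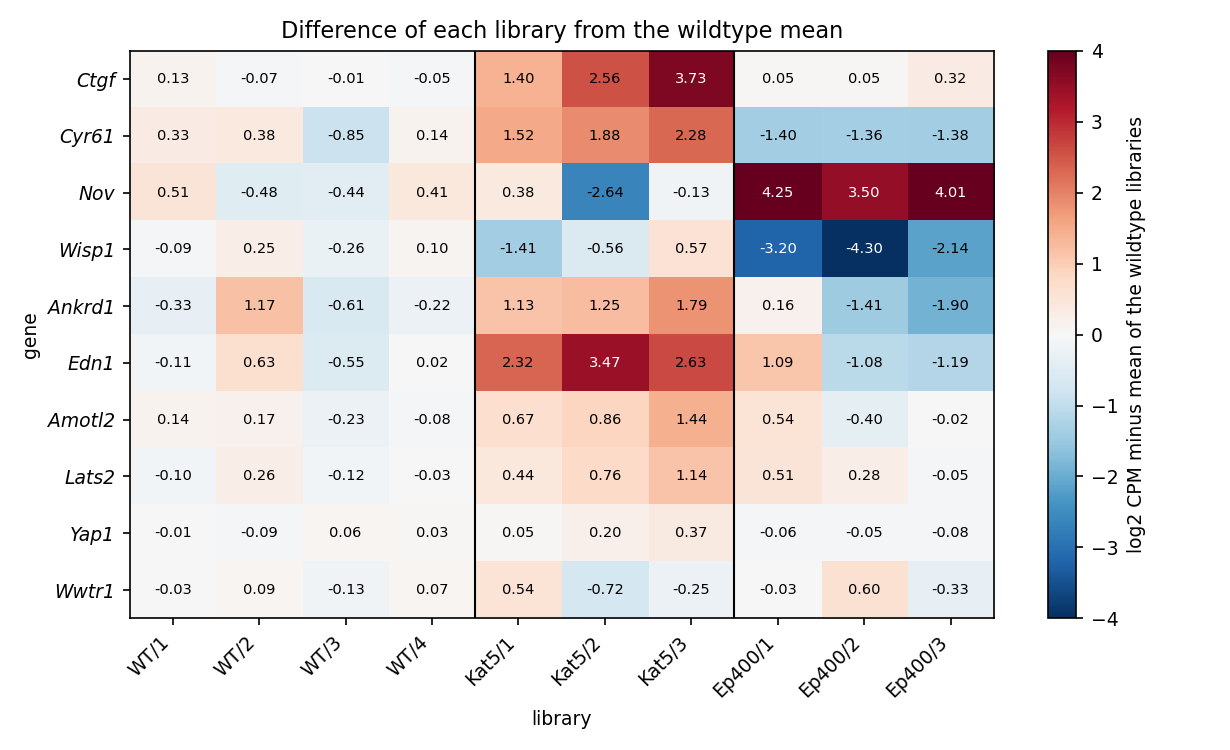
Difference of each library (columns) from the mean of the wildtype samples in log2 CPM for each gene (rows), printed in each cell and coloured from −4 to 4; vertical lines separate wildtype, Kat5 ko and Ep400 ko libraries. Ctgf ranges from 1.40 to 3.73 across the Kat5 ko clones, and Cyr61 from −1.40 to −1.36 across the Ep400 ko clones.

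Libraries also differed in a shared way within groups. Kat5/3 was the highest of its group for 7 of the 10 genes, with Edn1 highest in Kat5/2 and Nov and Wwtr1 highest in Kat5/1. Kat5/1 was the lowest of its group for 8. Of the wildtype samples, number 2 was highest for 7 genes and number 3 lowest for the same 7 (Cyr61, Wisp1, Ankrd1, Edn1, Amotl2, Lats2 and Wwtr1). Ep400/1 was the highest Ep400 ko clone for Nov, Ankrd1, Edn1, Amotl2 and Lats2. Smooth muscle markers followed another order in the Kat5 ko clones, with 685, 0.461 and 23.9 CPM in Kat5/1 to Kat5/3, of which Acta2 made up 505, 0.461 and 20.6 CPM. Myh11, Des and Cnn1, the more restricted markers of this list, stayed under 1 CPM in every library. The clone with the highest smooth muscle sum was thus the one with the lowest Ctgf and Cyr61 among the Kat5 ko clones.

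Across the 10 libraries, Ankrd1 and Edn1 ran most closely in rank (Pearson r = 0.90, Spearman rho = 0.95, and r = 0.86 without the 2 libraries farthest from the median of Ankrd1). Ctgf and Yap1 had the highest Pearson r of any pair (0.92), but rho was 0.58, and r was 0.34 without Kat5/2 and Kat5/3. Nov ran opposite to Wisp1 (r = −0.79, rho = −0.60) and to Cyr61 (r = −0.78, rho = −0.77). These values describe 10 points that share 3 groups, clones and scaling.

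When all 14078 expressed genes were compared with Cyr61 over the same 10 libraries, the 3 most alike were Gnptab (r = 0.98), Prrc2b (0.97) and Dcp2 (0.96). For Ankrd1 they were Iws1 (0.98), Wdr55 and Eif4ebp2 (both 0.97), and for Edn1 Alg3 (0.98), Zpr1 and Zbtb14 (both 0.97). Yap1 was most like Cdk12 (0.96), Ikbkap and Nufip2 (both 0.95). For Ctgf, Sppl2b (0.97), Ythdf1 and Ccdc137 (both 0.96) came first, but their r was between 0.71 and 0.74 without Kat5/2 and Kat5/3. No other CCN or YAP pathway gene was among these 15, from which nothing is read, as 15 are few of 14078 genes. Between 50 and 158 genes reached an r of at least 0.9 with each of the genes compared.

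**Figure D3:**
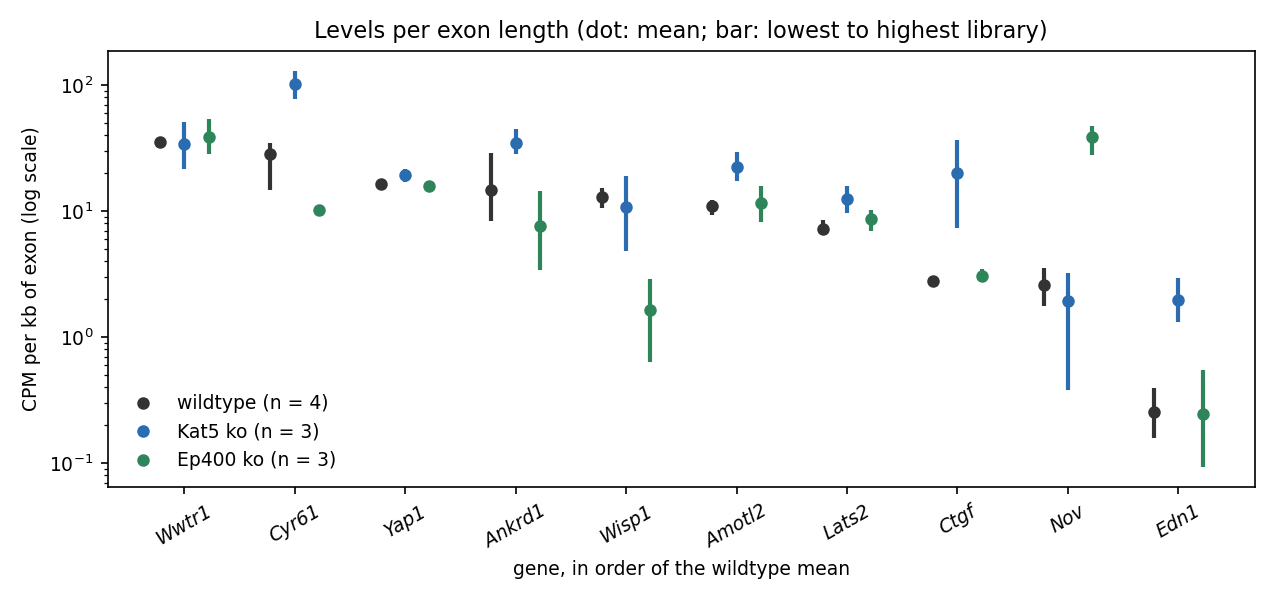
Mean level per exon length in CPM per kb (dot, vertical log axis) with the lowest and highest library of each group (bar), for wildtype (n = 4), Kat5 ko (n = 3) and Ep400 ko (n = 3), with genes in the order of the wildtype mean. Cyr61 is first in Kat5 ko clones at 102, and Nov reaches 38.5 in Ep400 ko clones from 2.60 in wildtype.

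To compare the genes with each other, levels were divided by exon length. In wildtype samples Wwtr1 came first (35.4 CPM per kb), followed by Cyr61 (28.2), Yap1 (16.6), Ankrd1 (14.7), Wisp1 (12.9), Amotl2 (11.0), Lats2 (7.22), Ctgf (2.77), Nov (2.60) and Edn1 (0.256). Neighbours in this order overlapped in range, with the exceptions of Amotl2 with Lats2, Lats2 with Ctgf, and Nov with Edn1. In Kat5 ko clones Cyr61 was first (102) and did not overlap with Ankrd1 (34.5) or Wwtr1 (34.2), while Ctgf with 20.2 moved up to the level of Amotl2 (22.2) and Yap1 (19.2). Lats2 (12.6) and Wisp1 (10.8) followed, ahead of Edn1 (1.97) and Nov (1.95). In Ep400 ko clones Nov (38.5) was level with Wwtr1 (38.7), and neither overlapped with Yap1 (15.8). Amotl2 (11.6), Cyr61 (10.3), Lats2 (8.61), Ankrd1 (7.58) and Ctgf (3.06) came next, and Wisp1 (1.64) was the last but Edn1 (0.248).

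All 10 genes were expressed highly enough to enter each fit. In the comparison of Kat5 ko with wildtype, Ctgf, Cyr61 and Edn1 were past an adjusted p of 0.05 in edgeR's test, all 3 higher, among 13434 genes of which 0.127% were called higher and 0.372% lower. Groups did not overlap for 5 of the 10 genes, all with Kat5 ko clones above wildtype, where 9.67% of all genes lay wholly above and 10.2% wholly below. The median log2-fold change of the 10 genes was 0.88, and that of all genes was 0.00 to 2 decimals. Because this contrast chose the genes, nothing is read from these counts. They also rest on single libraries: Ctgf passed in 1 of the 7 fits that left out a library each (without Kat5/1), and Cyr61 and Edn1 in 2 each. None of the 10 genes passed without wildtype sample 1 or 4 or without Kat5/2 or Kat5/3, only 1 passed without wildtype sample 3, and 5 passed without Kat5/1. Calls over all genes moved too, from 67 with all libraries to 33 without wildtype sample 3 and 2651 without Kat5/1. They numbered 1 to 36 in the fits where none of the 10 genes passed.

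In Ep400 ko clones Nov passed as higher and Cyr61 and Wisp1 as lower, while 8.09% of 13836 genes were called higher and 5.76% lower. The same 3 genes, 1 above and 2 below, had no overlap with wildtype, as had 16.1% (above) and 14.1% (below) of all genes. The median log2-fold change was 0.03 over the 10 genes and 0.04 over all genes. Here too the genes were chosen with these values known, and nothing is read from the counts. Both comparisons use the same wildtype libraries.

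Set against each other directly, Ep400 ko clones had lower levels than Kat5 ko clones for most of the 10 genes. Of these, 7 (Ctgf, Cyr61, Wisp1, Ankrd1, Edn1, Amotl2 and Yap1) lay wholly below and Nov lay wholly above, and Lats2 and Wwtr1 overlapped. Of all 13587 genes, 18% lay wholly below and 20.5% wholly above. Log2-fold changes were −2.74 ± 0.54 SE for Ctgf, −3.33 ± 0.24 for Cyr61, −2.74 ± 0.67 for Wisp1, −2.20 ± 0.54 for Ankrd1, −2.98 ± 0.81 for Edn1, −0.95 ± 0.31 for Amotl2 and −0.30 ± 0.17 for Yap1. For Nov the value was 4.27 ± 0.71. Ctgf and Cyr61 passed the test as lower and Nov as higher, where 2.97% and 4.34% of all genes did. These calls depend on single libraries. None of the 10 genes passed without Ep400/3 and 5 passed without Kat5/1, where 4 and 2537 of all genes did. As all 10 columns were known when the genes were chosen, these counts too are given without further reading. Without Kat5/3 the Ctgf value was −1.97, and without Ep400/1 those of Edn1 and Ankrd1 were −4.34 and −3.09.

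The wider pathway was followed in 82 other genes in 7 lists. In Kat5 ko clones none of the 73 genes tested passed edgeR's test, although 31 had an unadjusted p below 0.05 and 14 list genes passed in DESeq2. Of all 13434 genes tested in edgeR, 67 passed and 2993 had an unadjusted p below 0.05, and 1391 genes passed in DESeq2. Without Kat5/1, 15 list genes passed in edgeR, beside 2651 of all genes. In Ep400 ko clones 15 of 75 passed (20%), 9 higher and 6 lower, beside 13.9% of all genes. Of these 15 genes, 9 passed in every fit with a single library left out. Sav1, Ajuba, Vgll3, Nt5e, Fjx1 and Flna did not. Wildtype sample 1 was among the libraries whose removal ended the call for each of these 6.

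**Figure D4:**
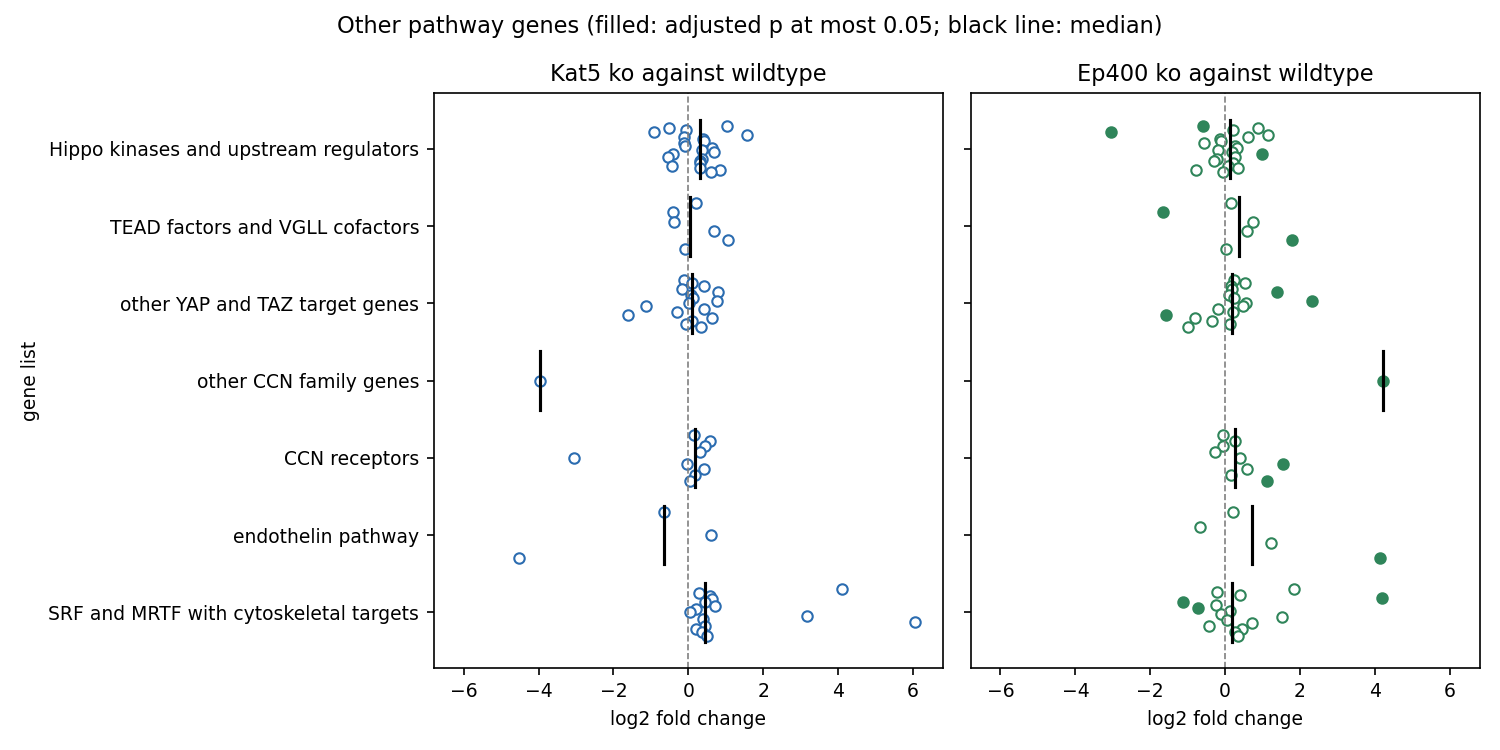
Log2-fold change (horizontal axis) of the tested genes of 7 pathway lists (rows) in Kat5 ko and Ep400 ko clones against wildtype; each circle is a gene, filled where the edgeR adjusted p is at most 0.05, and the black line is the median of the list. The circle farthest to the right for Kat5 ko is Tagln at 6.05, a value that rests on Kat5/1; no circle is filled for Kat5 ko and 15 are filled for Ep400 ko.

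Among 22 Hippo kinases and upstream regulators, 3 passed in Ep400 ko clones, a share close to the 13.9% of all genes. Dchs1, a protocadherin of the Fat pathway, fell (log2-fold change −3.05 ± 0.36 SE, edgeR adjusted p = 0.00312) from a wildtype range of 56.6 to 112 CPM to 5.75, 8.25 and 13.0 CPM. Ajuba, a LIM protein that inhibits Lats kinases, fell as well (−0.60 ± 0.15, edgeR adjusted p = 0.0332). Sav1, the scaffold of the Hippo kinases, rose (0.99 ± 0.20, edgeR adjusted p = 0.0160). In Kat5 ko clones Ajuba had 101, 200.3 and 167 CPM, all above the wildtype range of 67.7 to 85.2 CPM. The change of 1.03 did not pass in edgeR (edgeR adjusted p = 0.0705) but did in DESeq2 (DESeq2 adjusted p = 0.00234). Between the knockouts, Ajuba (−1.68, edgeR adjusted p = 0.0293) and Sav1 (1.35, edgeR adjusted p = 0.0301) differed. The list had a median of 0.32 in Kat5 ko and 0.13 in Ep400 ko clones.

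In the list of TEAD factors and VGLL cofactors, Tead2 fell in Ep400 ko clones (−1.66 ± 0.25 SE, edgeR adjusted p = 0.00634), with 39.8, 44.1 and 48.5 CPM beside 93.9 to 177 CPM in wildtype. Vgll3, a cofactor of TEAD factors, rose (1.80 ± 0.45, edgeR adjusted p = 0.0334). Every Kat5 ko clone also lay above the wildtype range for Vgll3, but the change of 1.06 did not pass (edgeR adjusted p = 0.190, DESeq2 adjusted p = 0.0849). The other 4 genes tested did not pass edgeR's test against wildtype, and Vgll1 and Vgll2 were too low to test. In DESeq2, 1 gene of the list passed in Kat5 ko and 3 in Ep400 ko clones, beside 1391 and 3175 of all genes. Between the knockouts Tead2 was lower (−1.29, edgeR adjusted p = 0.0277) and Tead3 higher (1.08, edgeR adjusted p = 0.0455) in Ep400 ko clones.

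Of 17 other YAP and TAZ target genes, Crim1 (1.40 ± 0.18 SE, edgeR adjusted p = 0.00372) and Fjx1 (2.33 ± 0.63, edgeR adjusted p = 0.0429) rose in Ep400 ko clones. Fjx1 was low, with 29, 78, 15 and 42 reads in wildtype samples and 99, 292 and 224 in Ep400 ko clones. Ep400/1 with 2.32 CPM lay barely above wildtype sample 2 with 2.25 CPM. Nt5e, the ecto-5′-nucleotidase, fell (−1.58 ± 0.40, edgeR adjusted p = 0.0335). In Kat5 ko clones Crim1 (0.79), Fjx1 (0.77) and Nt5e (−1.60) had the same signs without passing. All Kat5 ko clones lay above the wildtype range for Crim1 and below it for Nt5e, and for Fjx1 the groups overlapped. The medians of the 17 genes were 0.09 in Kat5 ko and 0.18 in Ep400 ko clones. None of the 17 passed in Kat5 ko clones, where 4 had an unadjusted p below 0.05 and 2 (Crim1 and Nt5e) passed in DESeq2. Over all genes, 2993 of 13434 had such a p and 1391 passed in DESeq2. Between the knockouts none of the 17 passed either in edgeR, with 3 below an unadjusted p of 0.05 and 2 passing in DESeq2. There, 4404 of all 13587 genes had such a p and 3013 passed in DESeq2.

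CCN receptors were represented by 9 genes. Integrin beta 5 (Itgb5) had 40.8 to 50.2 CPM in wildtype samples and 99.0, 119 and 181 CPM in Ep400 ko clones, a rise of 1.55 ± 0.21 SE (edgeR adjusted p = 0.0044). The proteoglycan gene Sdc4 rose by 1.12 ± 0.21 (edgeR adjusted p = 0.0141). Itgb5 but not Sdc4 passed edgeR's test between the knockouts (1.54 and 1.01, edgeR adjusted p = 0.0334 and 0.0523). In DESeq2 both passed (DESeq2 adjusted p = 0.00023 and 0.0105). Itgb3 passed there too (3.40, edgeR adjusted p = 0.0341), with 7.51, 3.56 and 3.19 CPM in Ep400 ko and 0.717, 0.198 and 0.397 CPM in Kat5 ko clones. Wildtype samples had 0.990, 0.376, 12.1 and 1.04 CPM of Itgb3, and their range overlapped with both. The overlap with Ep400 ko rested on wildtype sample 3, as the other samples were below every Ep400 ko clone.

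In the endothelin pathway, receptor genes differed between the knockouts. Ednrb had 3, 0, 3 and 4 reads in wildtype samples, 0 in each Kat5 ko clone and 30, 38 and 72 in Ep400 ko clones. It rose in Ep400 ko against wildtype (4.14 ± 0.70 SE, edgeR adjusted p = 0.00886) and was at least 12.4-fold higher than in Kat5 ko clones (against 3 reads in the library with the highest such floor; edgeR adjusted p = 0.0268). Ednra, the jaw-patterning receptor, was singled out after its values were seen, as were Tead3, Itgb3, Ece1 and Ece2. It had 44, 107, 23 and 61 reads in wildtype samples and 3, 0 and 5 reads in Kat5 ko clones (−4.52 ± 0.90 SE). This change did not pass in edgeR (edgeR adjusted p = 0.0650) but did in DESeq2 (DESeq2 adjusted p = 5.04e-06). Ep400 ko clones had 109, 42 and 296 reads, and the knockouts differed (5.70, edgeR adjusted p = 0.0321). Edn1 was thus high in the clones in which reads of both receptor genes were fewest. Ece1, which encodes an endothelin converting enzyme, also differed between the knockouts (0.82 higher in Ep400 ko, edgeR adjusted p = 0.0482). Against wildtype it was lower in every Kat5 ko clone (−0.65, edgeR adjusted p = 0.0705, DESeq2 adjusted p = 0.00274) and overlapped in Ep400 ko (0.22). Ece2 of the same list went the other way between the knockouts without passing in edgeR (−1.32, edgeR adjusted p = 0.0513), though it passed in DESeq2 (DESeq2 adjusted p = 0.00175). The ligand genes Edn2 and Edn3 were too low to enter edgeR's test. In DESeq2, Edn2 passed as lower in Ep400 ko clones against wildtype (−5.30, DESeq2 adjusted p = 0.0397). It had 9, 9, 8 and 0 reads in wildtype samples and 0 in every Ep400 ko clone.

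The serum response factor SRF and its MRTF co-activators share many cytoskeletal targets with YAP. In this list, all 15 genes tested had a log2-fold change above 0 in Kat5 ko clones, with a median of 0.45, where 50% of all genes were above 0. The largest of these values rested on Kat5/1. Tagln had 180, 0 and 3.15 CPM, Acta2 505, 0.461 and 20.6 CPM and Myl9 20.6, 0.033 and 0.264 CPM in Kat5/1 to Kat5/3, and Kat5/2 was below the wildtype range for all 3. Without Kat5/1, 12 of 15 genes were above 0, with a median of 0.26, beside 47.4% of all genes. With all clones, none of the 15 passed edgeR's test and 8 had an unadjusted p below 0.05, beside 2993 of all 13434 genes. In DESeq2, 4 genes of the list passed, beside 1391 of all genes. In Ep400 ko clones the LIM gene Fhl2 (−1.12 ± 0.19 SE, edgeR adjusted p = 0.00904) and the filamin gene Flna (−0.73 ± 0.16, edgeR adjusted p = 0.0215) fell. Fhl1 rose from under 0.3 CPM in all wildtype samples to 1.64, 2.19 and 2.69 CPM (edgeR adjusted p = 0.00861). In Kat5 ko clones, where it had 10.5, 0 and 13.5 CPM, Fhl1 did not enter edgeR's test. It passed there in DESeq2 (6.13, DESeq2 adjusted p = 0.0152), although Kat5/2 was at 0. Between the knockouts Fhl2 (−1.79, edgeR adjusted p = 0.0288) and Flna (−1.48, edgeR adjusted p = 0.0313) differed, with lower levels in Ep400 ko clones. Calls between the knockouts numbered 12 of 76 genes tested over the 7 lists (15.8%), beside 7.32% of all genes. Without Kat5/3 or Ep400/3 they numbered 0, where 5 and 4 of all genes passed.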

How the data were processed

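RNA of 4 wildtype samples, 3 Kat5 ko clones and 3 Ep400 ko clones was prepared by the authors with poly-A selection and a stranded kit, sequenced as read pairs on a NovaSeq instrument and mapped to mm10. The submitters' processing notes list bcl2fastq 2.20, STAR 2.7.3, DESeq2 1.36.0 and R 4.2.1. The deposited counts are whole reads per gene; the counting program and its use of strand are not given in the sources used here. The normalized tables, which the authors made per comparison, were not used.

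Genes were filtered (filterByExpr), scaled by TMM and tested in pairwise fits with edgeR 4.0.16 in R 4.3.3 (quasi-likelihood test, two-sided, Benjamini-Hochberg, adjusted p of at most 0.05). DESeq2 1.42.0 was an alternative, as were other scalings, filters, fits, a replicate block and leaving out each library. Levels are CPM with joint TMM factors, and log2 values carry a prior count of 2. The SE of a fold change was derived from the F statistic. Wildtype libraries are described as independent samples and the ko libraries as single clones, so that p-values measure the spread between them. Library totals of 30968945 to 48301792 reads limit precision for low genes only, and floors of 3 reads cover counting error only. No library was a repeat of another (chi-square of count differences within groups, over its degrees of freedom, 27.3 to 261). Replicate numbers did not pair the libraries (correlations of −0.10 to 0.23 over 9 pairs). On simulated counts for the Kat5 comparison (14078 genes), 188 of 200 genes changed by 2 on the log2 scale were recovered, with 12 false calls. The changed genes were not drawn from low genes, and the spread of each gene followed the fitted trend with level. The recovery therefore does not hold for low genes or for genes that vary widely between clones.

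The 10 genes and the lists were chosen with earlier results of these data known. From each list, up to 4 genes with the smallest adjusted p among those passing against wildtype in either knockout were named. The 3 genes most alike to each of 5 of the 10 genes were named too. Ednra, Tead3, Itgb3, Ece1 and Ece2, and the smooth muscle genes given per clone, are additions made after their values were seen.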

Additional observations from a re-analysis of the deposited data

Results flagged for a closer look

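In 25 groups of 4 wildtype values, 2 held a sample far from the others, and chance gives about 1 in 20. Ankrd1 in wildtype sample 2 was at 83.7 CPM, with the other samples at 24.3 to 31.9 CPM. Sdc4 in wildtype sample 3 was at 33.8 CPM, below 57.0 to 61.1 CPM in the others. Itgb3 is not counted here, but its wildtype sample 3 had 12.1 CPM, with 0.376 to 1.04 CPM in the others.

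The knockouts moved in different ways for Cyr61, with all Kat5 ko clones above and all Ep400 ko clones below wildtype. The log2 difference between them was −3.33, from which nothing is read, as the gene was chosen with these values known. Of the 12 list genes for which the difference between Ep400 ko and Kat5 ko clones passed edgeR's test, 8 had also passed against wildtype: Sav1 (1.35), Ajuba (−1.68), Tead2 (−1.29), Wisp2 (8.14), Itgb5 (1.54), Fhl2 (−1.79) and Flna (−1.48) on the log2 scale, and Ednrb with at least 12.4-fold more in Ep400 ko clones.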

How the results depend on the processing

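For the Kat5 comparison, edgeR called 67 genes, DESeq2 1391, edgeR without a filter on low counts 245 and a single fit of all libraries 26. Leaving out each library gave 1 to 2651 (1 without wildtype sample 1, 2651 without Kat5/1). List genes numbered 0, against 14 in DESeq2, 2 without a filter and 0 to 15 with a library left out. For Ep400, the 1917 genes became 3175 in DESeq2, 1273 in the single fit and 826 to 2016 with a library left out, and the 15 list genes 9 to 15. Between the knockouts, 994 genes became 3013 in DESeq2, 1803 without a filter, 3539 in the single fit and 4 to 2537 with a library left out, and the 12 list genes 21 in DESeq2, 25 in the single fit and 0 to 19. The cause of these shifts was not tested. Library numbers do not pair the samples. With the replicate block in edgeR, 0 genes passed in the Kat5 comparison (1989 at an unadjusted p below 0.05), 170 in that of Ep400 (3 of them list genes) and 213 in that of the knockouts (4 list genes). Among the 10 genes and the 15 list genes that passed for Ep400, no called value changed sign. Of the 10 genes, uncalled Kat5 values of Nov, Wisp1 and Wwtr1 and Ep400 values of Edn1, Amotl2 and Wwtr1 did so in 1 to 4 of 14 alternatives, and that of Wwtr1 between the knockouts in 2 of 13. Edn1, with 7 to 29 reads in most wildtype and Ep400 ko libraries, is limited by depth.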
